A study of Mus musculus with 30 samples.

Results

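Indolo[3,2-b]carbazole (ICZ) was compared with its vehicle in F2, the second of 5 fractions released from mouse small intestinal epithelium by successive EDTA treatments. The comparison holds 6 of the 29 libraries with an assigned treatment and fraction, 3 from ICZ mice and 3 from vehicle mice, chosen by their labels alone. All 6 were female C57BL/6 mice titled WT, 8 to 10 weeks old, moved from chow to the semi-purified AIN93G diet for 1 week. Vehicle mice were gavaged with corn oil, the ICZ mice with 10 µg ICZ in corn oil, and the intestine was taken after 12 h. The question was how epithelial cells respond to this ligand of the aryl hydrocarbon receptor (AHR). The labels call the replicates of a group biological replicates, the fractions of a mouse share the animal, and the labels do not say which part of the crypt-villus axis F2 holds.

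AHR is a ligand-activated transcription factor that, with its partner ARNT, binds DNA at a short core motif and switches on detoxifying enzymes of the CYP1 family. ICZ is an AHR ligand that forms from indoles of cruciferous vegetables in stomach acid, and AIN93G is used here as a diet without such ligands. In the intestine AHR acts in epithelial cells, which clear its ligands, and in intraepithelial lymphocytes, the T cells lodged between epithelial cells.

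The promoters of the genes described first are shown because the AHR core motif, GCGTG or its reverse complement CACGC, is the element through which CYP1 genes are known to respond. They run from 250 bases before to 50 after the annotated start (RefSeq, GRCm38.p6), 5′ to 3′ along the gene, with core motifs in capitals. The core motif, searched on both strands, was in 32.4% of the 32851 promoters in that table, so a single match is common. Of the 12115 genes tested here 8128 have an entry, and 56.7% of these hold the motif in at least 1 of their windows; with so many genes unmatched, no share was compared between gene sets. The Cyp1a1 window, chr9:57697363-57697662 on the plus strand, holds 1 match, 54 bases before the start. The known cluster of AHR sites of this gene lies further upstream than the window reaches. The Cyp1a2 window, chr9:57683606-57683905 on the minus strand, holds none. The Ahrr window, chr13:74292282-74292581 on the minus strand, holds 3, at 107, 82 and 27 bases before the start.
Cyp1a1: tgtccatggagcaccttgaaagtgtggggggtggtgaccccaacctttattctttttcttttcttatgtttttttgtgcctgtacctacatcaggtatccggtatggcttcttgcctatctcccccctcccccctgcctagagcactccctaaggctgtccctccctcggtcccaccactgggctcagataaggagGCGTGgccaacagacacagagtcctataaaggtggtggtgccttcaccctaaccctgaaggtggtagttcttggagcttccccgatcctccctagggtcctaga
Cyp1a2: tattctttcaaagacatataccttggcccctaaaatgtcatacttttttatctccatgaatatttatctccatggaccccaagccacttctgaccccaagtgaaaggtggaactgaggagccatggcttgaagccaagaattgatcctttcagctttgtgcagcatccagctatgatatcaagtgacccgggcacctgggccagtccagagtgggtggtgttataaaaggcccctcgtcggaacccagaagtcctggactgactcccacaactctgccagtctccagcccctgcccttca
Ahrr: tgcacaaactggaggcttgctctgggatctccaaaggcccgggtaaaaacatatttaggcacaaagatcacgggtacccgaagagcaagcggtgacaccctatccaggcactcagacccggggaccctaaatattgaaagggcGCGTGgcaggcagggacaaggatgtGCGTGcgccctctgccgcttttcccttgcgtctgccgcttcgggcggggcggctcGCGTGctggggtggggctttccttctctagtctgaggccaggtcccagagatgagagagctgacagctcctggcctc

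The 6 libraries held 5716419 to 7032542 reads assigned to genes, and 12115 of the 54146 genes in the table passed the filter on low counts. Levels are given as CPM, read counts scaled to library size with the TMM method. The tissue label was checked against markers: the 10 epithelial genes summed to 7609 to 9129 CPM with vehicle and 7963 to 8228 with ICZ. Stromal and muscle markers summed to at most 16.9 and 6.67 CPM in any library. Leukocyte markers were present in every library and differed between the groups, with values given beside the genes they move with. In both groups replicates differed from each other by more than counting error, with a chi-square per degree of freedom of 8.98 to 28.1.

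ICZ left 2 genes past the threshold of the main test, which uses edgeR with a Benjamini-Hochberg adjusted p of 0.05 and treats the 6 mice as unpaired. Both, Ikzf2 and Padi2, fell, and none rose; 2 of 12115 genes are 0.0165%. At an unadjusted p under 0.05 there were 699 genes higher (5.77%) and 756 lower (6.24%), 12% of those tested together. Libraries of the same replicate number had weakly correlated deviations from their group means (0.18, 0.11 and 0.17 across genes). By the rule used here this pairs the mice, although the titles give the replicates numbered 1 different mouse numbers. The pairing was thus taken from these same data, and every blocked result below rests on it. With the replicate number as a block, the same test called 221 genes (1.82%), 93 of them higher with ICZ (0.768%) and 128 lower (1.06%), and both Ikzf2 and Padi2 were among the 128. By size the genes higher were led by Cyp1a1, Cyp1a2 and Acta1, and they included 6 of 34 proliferation genes. Those lower included 3 of 16 T cell markers. Counts of called list members below stand beside the shares of 0.768% higher and 1.06% lower over all tested genes. The lists were chosen with earlier results of these data known, so such counts are descriptions and not separate support. The groups did not overlap for 980 genes higher with ICZ (8.09%) and 1009 lower (8.33%). Neither count of calls was stable: leaving out 1 mouse gave 0 to 267 calls without the block (267 without ICZ replicate 1), and leaving out a replicate pair gave 59 to 429 with it.

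**Figure D1:**
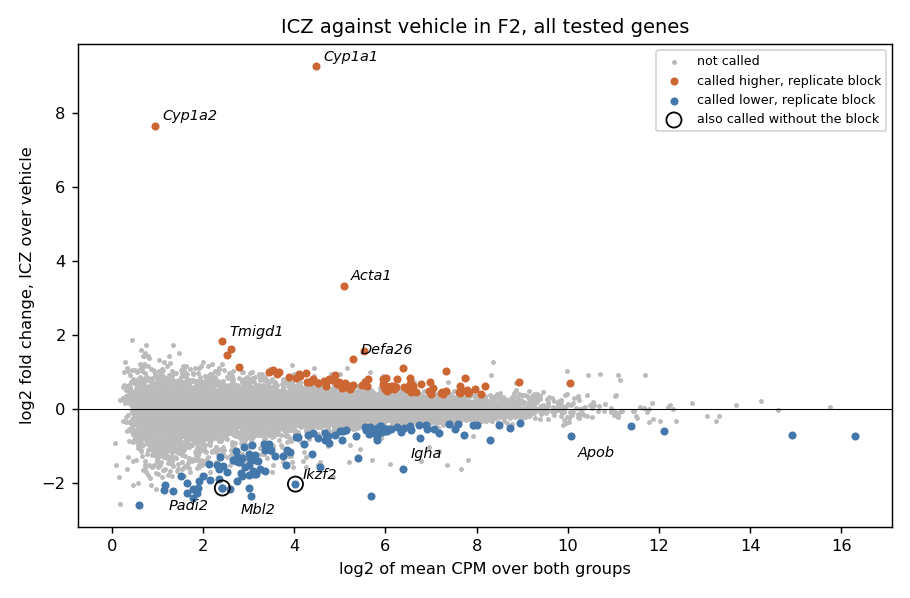
Log2 fold change of ICZ over vehicle in F2 (vertical) against the log2 of the mean CPM over both groups (horizontal), 1 point per tested gene. Coloured points passed the blocked test (93 higher, 128 lower) and the 2 circled genes, Ikzf2 and Padi2, also passed the test without a block; Cyp1a1, Cyp1a2 and Acta1 stand above all other genes.

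Cyp1a1 encodes the monooxygenase that oxidizes AHR ligands, including ICZ itself. It lies at chr9 57687928 to 57703824 on the plus strand. Vehicle mice gave 1, 0 and 0 Cyp1a1 reads in replicates 1 to 3, and ICZ mice 520, 178 and 106, or 92.5, 27.6 and 14.2 CPM. Every ICZ mouse was far above every vehicle mouse, and the ICZ mice themselves spread widely. The ratio of pooled reads was 789, with an exact 95% interval of 141 to 31200 that covers counting error only and rests on the single vehicle read. Without vehicle replicate 1, which holds that read, the fold was at least 185, against a floor of 3 counts over the group. An exact two-sided permutation test over mice gave p = 0.1, the smallest that 3 against 3 allow. The edgeR test without a block gave a log2 fold change of 9.27 ± 1.73 (SE) and an adjusted p of 0.213. With the block these were 9.21 ± 0.39 and 1.40e-10. Both fits rest on the same single vehicle read, so the small SE with the block does not measure how well this fold is known.

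Cyp1a2, the neighbouring CYP1 gene (chr9 57676937 to 57683703, minus strand), is best known as a liver enzyme. It had 0 reads in the 3 vehicle mice and 9, 33 and 36 in the ICZ mice, or 1.6, 5.11 and 4.83 CPM. The order of the ICZ mice was not that of Cyp1a1: replicate 1 was lowest for Cyp1a2 and highest for Cyp1a1. Cyp1a2 was at least 25.5-fold higher with ICZ, taken against a floor of 3 counts over the vehicle group. Its adjusted p from edgeR was 0.0550 without the block and 0.00145 with it.

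Nqo1, a quinone reductase with both AHR and NRF2 sites (chr8 107388225 to 107403206, minus strand), stood at 10.6, 11.6 and 9.31 CPM with vehicle and 19.9, 17.7 and 19.2 with ICZ. The groups were well apart and each was tight. The ratio of pooled reads was 1.79 (exact 95% interval 1.51 to 2.14, counting error only). The adjusted p from edgeR was 0.106 without the block and 0.0270 with it. Of the 16 tested members of a list of NRF2 targets, genes of the oxidative stress response, 0 rose and 0 fell in the blocked fit, and their median log2 fold change was 0.01, beside 0 over all tested genes.

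Other classical AHR targets did not follow the CYP1 genes. Tiparp, which encodes a mono-ADP-ribosyltransferase that limits AHR, stood at 63.0, 80.2 and 66.4 CPM with vehicle and 69.7, 59.2 and 46.9 with ICZ. The groups overlapped, and the ratio of pooled reads was 0.817 (exact 95% interval 0.754 to 0.884, counting error only; exact permutation p = 0.3). Ahrr, the AHR repressor, which is also known from intestinal lymphocytes, had 2, 5 and 8 reads with vehicle and 0 in every ICZ mouse. Cyp1b1 had 1 read over the 6 libraries and the aldehyde dehydrogenase Aldh3a1 none, so a difference in these genes was not detectable at this depth. Ahr itself had 184 pooled reads with vehicle and 190 with ICZ, a ratio of 1.01 (0.823 to 1.25). Its partner Arnt had 394 and 298, a ratio of 0.742 (0.636 to 0.865), with overlapping groups and an exact permutation p of 0.2. Of the 9 genes in the AHR list 6 were tested, of which 3 rose in the blocked fit (Cyp1a1, Cyp1a2 and Nqo1) and 0 fell. Among 17 tested partners and other AHR-linked genes 0 rose and 0 fell, and their median was -0.05.

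**Figure D2:**
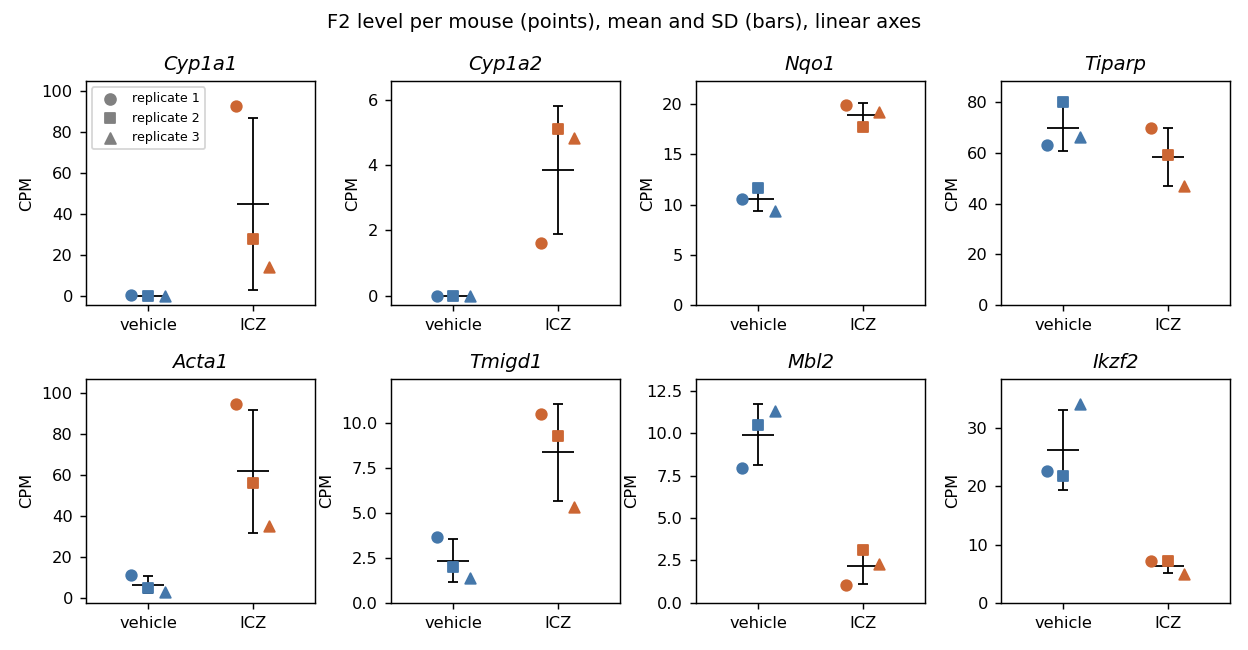
Level in CPM (vertical, linear axis) of 8 genes in each F2 library by group, with replicates 1 to 3 as different symbols and bars for the mean and SD over 3 mice. The ICZ mice lie above the vehicle mice for Cyp1a1, Cyp1a2, Nqo1, Acta1 and Tmigd1 and below them for Mbl2 and Ikzf2, while the groups overlap for Tiparp.

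Acta1 encodes skeletal muscle alpha actin, a target of serum response factor (SRF), and lies at chr8 123891769 to 123894751 on the minus strand. Its level was 10.9, 4.83 and 2.95 CPM with vehicle and 94.3, 55.8 and 34.9 with ICZ, highest in replicate 1 and lowest in replicate 3 of both groups. The groups were far apart, with a ratio of pooled reads of 9.81 (exact 95% interval 8.1 to 12, counting error only). The log2 fold change was 3.33 ± 0.60 without the block (adjusted p = 0.199) and 3.35 ± 0.17 with it (adjusted p = 1.55e-09). The other muscle genes did not share this level: the 13 smooth and skeletal muscle markers summed to 4.58 to 6.67 CPM with vehicle and 4.09 to 4.65 with ICZ. Among 11 tested actin and SRF target genes only Acta1 rose in the blocked fit, and the calponin Cnn2 fell, from 12.0, 13.6 and 20.3 CPM to 7.47, 7.12 and 6.43 (adjusted p = 0.106 without the block, 0.0173 with it). Actin genes have near-identical copies, so the assignment of their reads is uncertain.

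The promoter of Acta1, chr8:123894726-123895025 on the minus strand, is shown with the CArG box, the motif bound by SRF, in capitals 73 bases before the start, and it holds no AHR core. The CArG box, searched on both strands, was in 1.63% of all promoters in the table; the Cyp1a1 window also holds a match, at its TATA box, not in capitals there. Tmigd1, described next, has 2 annotated starts, and the window at the first, chr11:76890870-76891169 on the plus strand, holds 1 AHR core, in capitals, 54 bases before the start. The window at the other start holds none.
Acta1: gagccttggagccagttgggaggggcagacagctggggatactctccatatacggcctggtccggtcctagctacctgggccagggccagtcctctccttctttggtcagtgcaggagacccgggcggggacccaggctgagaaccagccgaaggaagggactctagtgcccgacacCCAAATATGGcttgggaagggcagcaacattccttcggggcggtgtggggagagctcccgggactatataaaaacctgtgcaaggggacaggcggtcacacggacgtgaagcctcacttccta
Tmigd1: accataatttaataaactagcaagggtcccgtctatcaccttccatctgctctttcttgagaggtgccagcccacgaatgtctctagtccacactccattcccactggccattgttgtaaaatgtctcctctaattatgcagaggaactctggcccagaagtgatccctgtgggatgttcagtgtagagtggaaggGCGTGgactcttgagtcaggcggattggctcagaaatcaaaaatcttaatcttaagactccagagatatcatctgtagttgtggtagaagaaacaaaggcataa

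Several genes of the epithelial surface and of transport were in the higher group of the blocked fit. Tmigd1, an adhesion protein of the brush border, stood at 3.70, 1.99 and 1.40 CPM with vehicle and 10.5, 9.29 and 5.36 with ICZ, without overlap (log2 fold change 1.83 ± 0.39, adjusted p = 0.103; with the block 1.86 ± 0.31, adjusted p = 0.00560). Of 20 tested brush border genes it alone rose, and the scaffold protein Pdzk1 fell (block adjusted p = 0.00778). The water channel Aqp8 stood at 3.17, 3.83 and 2.02 CPM with vehicle and 14.2, 9.14 and 4.56 with ICZ, and Aqp1, another water channel, at 48.0, 47.0 and 39.4 against 68.1, 78.7 and 86.9. The groups did not overlap for either gene, and the blocked fit called both (adjusted p = 0.0118 and 0.00520; without the block 0.199 and 0.0886). Of 18 tested genes of water, ion and dicarboxylate transport 3 rose with the block, these and the citrate transporter Slc13a2. In that fit 0.768% of all tested genes rose and 1.06% fell. The list median was 0.01, with 9 members positive and 9 negative. The sodium-proton exchanger Slc9a3 and the phosphate transporter Slc34a2 fell, with block adjusted p-values of 0.0214 and 0.0493.

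Adhesion genes that rose in the blocked fit were Tns4, a tensin of focal adhesions, and Lamb3, a chain of the basement membrane laminin. Tns4 stood at 15.8, 24 and 21.7 CPM with vehicle and 36.5, 41.8 and 38.9 with ICZ, a gap wider than the spread within either group (log2 fold change 0.92 ± 0.17, adjusted p = 0.0886; 0.00403 with the block). Of 19 tested tight junction and adhesion genes these 2 rose and 0 fell, with a list median of 0.06. Cdx2, the transcription factor that sets intestinal identity, stood at 159, 162 and 155 CPM with vehicle and 239, 214 and 272 with ICZ (0.61 ± 0.12, adjusted p = 0.0886; 0.00630 with the block). Its relative Cdx1 also rose in the blocked fit, from 43.8, 63.6 and 48.7 CPM to 73.5, 75.0 and 78.2 (adjusted p = 0.0326; 0.209 without the block). Of 18 tested genes of Notch signalling and lineage fate these were the 2 called, and the list median was 0.06.

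A few genes of absorption and metabolism moved in each direction, with the list medians near 0. Bco1, which cleaves beta-carotene to retinal, stood at 42.2, 13.2 and 14.6 CPM with vehicle and 107, 67.2 and 32.7 with ICZ. Replicate 1 was the highest in both groups, so the groups overlapped, and the blocked log2 fold change was 1.61 ± 0.20 (adjusted p = 0.00549; 0.478 without the block). It was the 1 gene called among 15 tested in retinoid handling. Ada, the adenosine deaminase of the villus tip, named after its values were seen, had the same pattern at 177, 71.1 and 70.3 CPM against 318, 145 and 181 (blocked 1.07 ± 0.11, adjusted p = 6.74e-05; 0.540 without the block). Of 15 tested villus tip genes 3 rose in the blocked fit, Ada, Ifrd1 and the ectonucleotidase Nt5e, and 1 fell, the chylomicron protein Apoa4. In that fit 0.768% of all tested genes rose and 1.06% fell. Without the block 0 villus tip genes were called.

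Apoa4 was also the 1 called gene among 25 tested absorptive enterocyte genes, whose median was -0.08. Apob, the structural protein of chylomicrons, fell in the blocked fit (-0.72 ± 0.11, adjusted p = 0.00284; 0.385 without the block). Its level was 1861, 1029 and 1121 CPM with vehicle and 1081, 762 and 581 with ICZ, with overlapping groups. Among 22 tested fat absorption genes Dgat2, the last enzyme of triglyceride synthesis, rose, and Apob and Apoa4 fell. Of 33 tested phase I and II xenobiotic genes Cyp2u1 and Cyp2j6 rose and Sult1d1 and Cyp3a11 fell, and the list median was -0.08. Cox4i1, a subunit of cytochrome c oxidase, stood at 755, 822 and 861 CPM with vehicle and 1172, 1372 and 1393 with ICZ (0.69 ± 0.13, adjusted p = 0.0886; 0.00145 with the block). It was the 1 call among 21 tested nuclear genes of oxidative phosphorylation, 6 of which were higher with ICZ without overlap, against 8.09% of all tested genes. Of 7 tested transcripts of the mitochondrial genome mt-Nd5 and mt-Nd6 fell in the blocked fit and 0 rose, and their list median was -0.04. Another 5, mt-Nd4l, mt-Co2, mt-Co3, mt-Atp6 and mt-Atp8, are listed at 0 reads in F2. Whether these zeros come from the counting was not tested. The mitochondrial ribosomal RNA mt-Rnr2, named after its values were seen, stood at 130851, 77517 and 95613 CPM with vehicle and 81499, 55074 and 45616 with ICZ. The groups overlapped, and it fell in the blocked fit (adjusted p = 0.00524; 0.314 without the block).

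As a list, chosen with earlier results of these data known, proliferation genes stood higher with ICZ. Of 34 tested members 6 rose in the blocked fit, where 0.768% of all tested genes did, and 0 fell. A positive log2 fold change was seen in 32, against 50% of all tested genes, and 16 were higher without overlap, against 8.09%. The median was 0.52, beside 0 over all tested genes, and 0.37 to 0.65 when 1 mouse was left out. The members summed to 1281 to 1402 CPM with vehicle and to 1450, 1817 and 2294 in ICZ replicates 1 to 3. Ube2c, an enzyme of mitotic exit, stood at 63.9, 76.3 and 75.7 CPM with vehicle and 99.8, 107 and 136 with ICZ (0.67 ± 0.14, adjusted p = 0.0988; 0.00549 with the block). The cyclin Ccna2 stood at 16.9, 26.0 and 19.9 CPM against 30.4, 39.2 and 38.9, and Rrm2, a subunit of ribonucleotide reductase, at 8.10, 14 and 13.3 against 18.3, 23.7 and 26.3. For all 3 genes the lowest ICZ mouse was above the highest vehicle mouse, and both Ccna2 and Rrm2 had a block adjusted p of 0.00917 (0.135 and 0.145 without the block). The other 3 calls were Plk1, Cdk1 and Mcm7.

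The genes of crypt base cells spread more between ICZ mice. The 18 Paneth cell genes, which encode the antimicrobial products of the crypt base, summed to 6617, 6949 and 8608 CPM with vehicle and 6702, 13830 and 18860 with ICZ. ICZ replicate 1 thus lay within the vehicle range and the other two above it. All 15 tested members had a positive log2 fold change, with a median of 0.91 (0.53 without ICZ replicate 3, 1.23 without ICZ replicate 1), but 2 rose in the blocked fit, Defa26 and Mmp7. Defa26, an alpha-defensin, stood at 18.1, 21.1 and 27.3 CPM with vehicle and 27.2, 57.9 and 83.0 with ICZ (1.34 ± 0.42, adjusted p = 0.334; 0.00268 with the block). Defensin genes are near-identical, so how reads fall among them is uncertain. Mmp7, the protease that activates defensins, named after its values were seen, stood at 39.2, 53.5 and 68.1 CPM against 51.4, 121 and 172 (block adjusted p = 0.00973; 0.473 without it). In a bulk sample more cells of a type and more RNA per cell cannot be told apart. This holds here, for the proliferation genes above and for every other list.

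Stem cell genes had a median of 0.39 over 18 tested (0.1 without ICZ replicate 3, 0.62 without ICZ replicate 1), and 1, Prom1, rose in the blocked fit. Their sum followed the Paneth genes across the ICZ mice, at 606.1, 935.6 and 1156 CPM, against 583.4 to 736.7 with vehicle. Of 20 tested enteroendocrine genes 0 were called, while 7 were higher with ICZ without overlap (8.09% of all tested genes were), among them the hormones Gcg, Cck and Sct. The list median was 0.28, or 0.16 without ICZ replicate 1. In goblet cells Agr2, a chaperone of mucin folding, rose in the blocked fit from 162, 202 and 213 CPM to 255, 288 and 252 (adjusted p = 0.0262; 0.209 without it), 1 of 14 tested. Muc2, the main goblet mucin, is listed at 0 reads in all 6 libraries, and whether this comes from the counting was not tested. Of 30 tested cytosolic ribosomal protein genes 1, Rpl37, rose in the blocked fit, and the median was 0.30, or 0.12 without ICZ replicate 3. Of 10 tested epithelial markers 0 were called, with a median of -0.09.

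**Figure D3:**
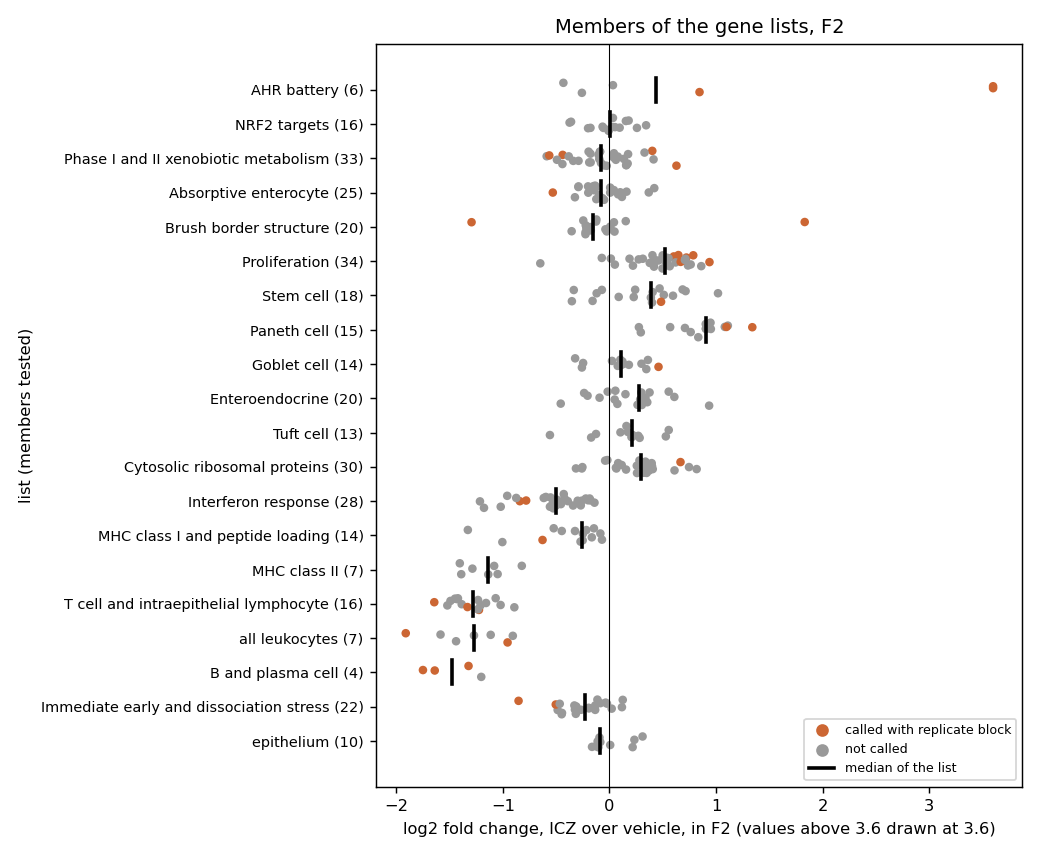
Log2 fold change of ICZ over vehicle in F2 (horizontal) for each tested member of 20 lists (vertical, members tested in brackets), with black bars for the medians and coloured points for genes called with the replicate block. Medians lie at -1.28 for T cell genes and -1.27 for leukocyte genes, at 0.52 for proliferation genes and 0.91 for Paneth cell genes, and near 0 for epithelial markers and NRF2 targets.

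Ikzf2 encodes Helios, a transcription factor of T cells, and lies at chr1 69531214 to 69687245 on the minus strand. Its level was 22.7, 21.7 and 34.1 CPM with vehicle and 7.12, 7.12 and 4.96 with ICZ. The lowest vehicle mouse was well above the highest ICZ mouse. The log2 fold change was -2.04 ± 0.23 (SE; adjusted p = 0.00920, edgeR), and the call was lost when vehicle replicate 2, vehicle replicate 3 or ICZ replicate 2 was left out (adjusted p = 0.0745, 0.071 and 0.068), with a log2 fold change of -1.80 or below in each case.

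Padi2, a peptidylarginine deiminase that converts arginine in proteins to citrulline, lies at chr4 140906344 to 140952586 on the plus strand. It stood at 8.80, 7.66 and 9.78 CPM with vehicle and 2.13, 2.32 and 1.48 with ICZ, without overlap. The log2 fold change was -2.15 ± 0.31, and its adjusted p of 0.0497 in edgeR was only just past the threshold. It was 0.105 with limma voom and 0.111, 0.228, 0.199 and 0.106 without vehicle replicates 2 and 3 and ICZ replicates 2 and 3. The innate defence lectin gene Mbl2 (chr19 30232942 to 30239687, plus strand), followed at 7.92, 10.5 and 11.3 CPM with vehicle and 1.07, 3.10 and 2.28 with ICZ (-2.18 ± 0.34, adjusted p = 0.0550; 0.00145 with the block).

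Lck, the kinase that starts T cell receptor signalling, stood at 10.9, 10.9 and 21.6 CPM with vehicle and 5.34, 4.03 and 4.56 with ICZ (-1.64 ± 0.30, adjusted p = 0.0886; 0.00500 with the block). Itgb7, the integrin chain that holds lymphocytes in the gut, stood at 5.28, 7.52 and 13.2 CPM against 2.31, 2.32 and 1.34 (-2.13 ± 0.39, adjusted p = 0.0886; 0.00895 with the block). In both, vehicle replicate 3 was the highest library and the groups did not overlap. Ets1, Gimap6, Arhgdib, Sash3, P2ry10, Stap1, Ms4a6b, Cyfip2 and the membrane linker Msn fell in the blocked fit with log2 fold changes of -2.27 to -1.68, as the heat map of named genes shows. Named by the same rule, Syne1, which encodes a nuclear envelope protein, fell by 2.25 ± 0.38 on the log2 scale in the blocked fit (adjusted p = 0.0134) and Asb2, a ubiquitin ligase subunit, by 2.23 ± 0.43 (adjusted p = 0.0110). H2-Q7, an MHC class I gene with near-identical relatives, fell in the blocked fit as well (adjusted p = 0.0197). Adrb1, a beta-adrenergic receptor, stood at 3.87, 5.11 and 8.38 CPM against 1.6, 0.465 and 1.21 (-2.42 ± 0.45 in the blocked fit, adjusted p = 0.00913). Ikzf3 (Aiolos) and the T cell receptor constant gene Trbc2, named after their values were seen, fell in the blocked fit too, with adjusted p-values of 0.00341 and 0.00883.

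**Figure D4:**
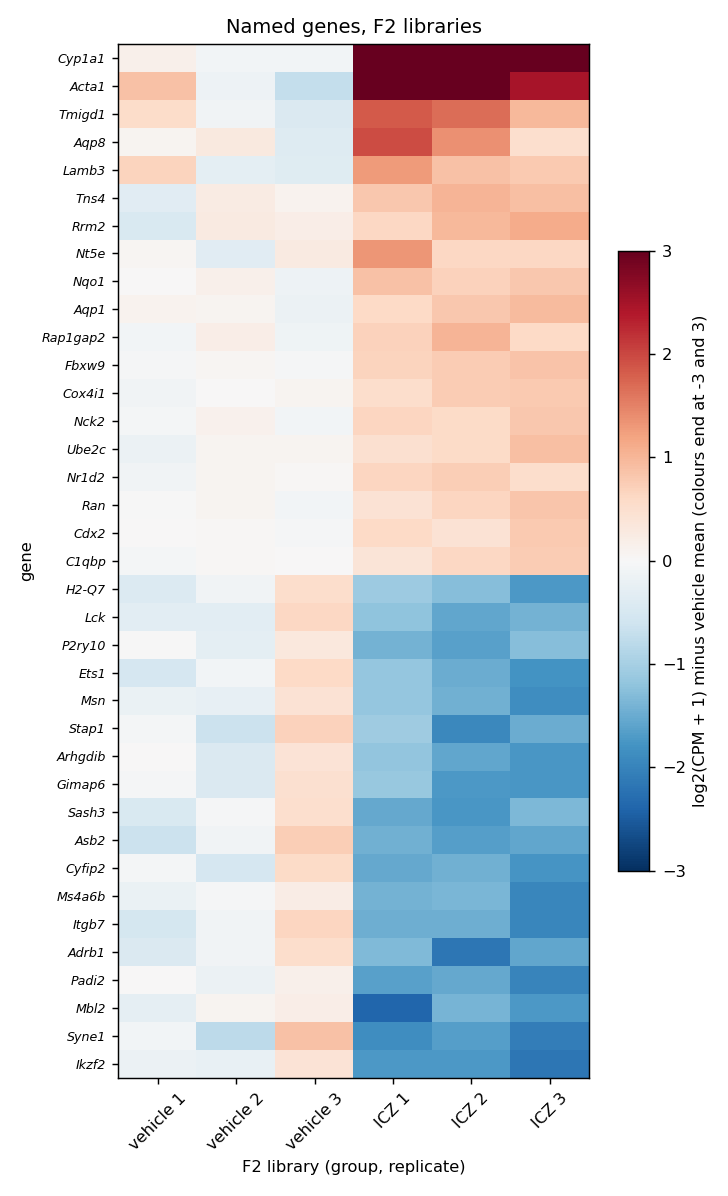
Genes named by rule from either fit (rows) in the 6 F2 libraries (columns), coloured by log2(CPM + 1) minus the mean of the 3 vehicle libraries. Among these genes, each with at least 5 CPM on average in a group, Cyp1a1 and Acta1 differ most in the higher direction, and the genes lower with ICZ, among them Ikzf2, Lck and Itgb7, are mostly highest in vehicle replicate 3.

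The T cell and intraepithelial lymphocyte markers moved with these genes. Their 17 genes summed to 587.5, 713.6 and 1362 CPM with vehicle and 435.9, 362.9 and 212 with ICZ, without overlap. All 16 tested members had a negative log2 fold change, with a median of -1.28, which was -0.98 without vehicle replicate 3 and -1.63 without ICZ replicate 1. Without overlap 10 members were lower (8.33% of all tested genes were). None passed the test without a block, and 3 fell with it (1.06% of all tested genes did). These were Lck, Cd160 and Trdc, the constant chain of the gamma-delta T cell receptor, at 23.1, 30.1 and 34 CPM with vehicle and 18, 10.5 and 9.25 with ICZ. The 8 general leukocyte markers summed to 106.7 to 257 CPM with vehicle and 54.97 to 77.39 with ICZ, their median over 7 tested was -1.27, and Arhgdib and Lcp1 fell in the blocked fit. The part that a smaller share of lymphocytes in the ICZ fractions has in the lower genes, Ikzf2 and Ahrr included, was not tested.

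Other immune lists were uneven between mice. Of 4 tested B and plasma cell genes Igha, Igkc and Jchain fell in the blocked fit, where 1.06% of all tested genes did. Igha, the constant chain of immunoglobulin A, stood at 27.1, 32.4 and 324 CPM with vehicle and 5.69, 12.1 and 103 with ICZ. Replicate 3 was far above the rest in both groups. Matched by replicate number, Igha was lower with ICZ in each of the 3 pairs (-1.70 ± 0.14 in the blocked fit, adjusted p = 3.40e-06, and 0.759 without the block). These pairs are different mice matched from these same data, so the agreement between pairs and the small blocked p are not separate support. With vehicle replicate 3 left out and the high ICZ replicate 3 kept, the unblocked log2 fold change was 0.457 in place of -1.64. The 10 MHC class II genes, which present antigen, summed to 1031 CPM in vehicle replicate 1 and to 251.7 and 364.6 in the other vehicle mice, against 334.3, 241.3 and 133.3 with ICZ. Their median was -1.14, or -0.36 without vehicle replicate 1, the groups overlapped, and 0 of 7 tested were called. Of 4 tested macrophage and dendritic cell genes Fcer1g fell in the blocked fit, and the median was -0.86 (-1.28 to -0.72 when 1 mouse was left out).

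As a list, also chosen with earlier results of these data known, interferon response genes were lower. All 28 tested members had a negative log2 fold change, with a median of -0.50 (-0.68 to -0.33 when 1 mouse was left out), 8 were lower without overlap (8.33% of all tested genes were), and 2 fell in the blocked fit (1.06% of all tested genes did). Ifit1bl1, an interferon-induced gene, stood at 75.7, 68.0 and 72.0 CPM with vehicle and 47.7, 44.3 and 28.8 with ICZ (-0.84 ± 0.17, adjusted p = 0.0982; 0.00549 with the block). Gbp7, a guanylate-binding protein, stood at 26.2, 26.1 and 34.4 CPM against 17.8, 17.7 and 15.2 (adjusted p = 0.117; 0.0262 with the block). Both were lower in every ICZ mouse. The 14 genes of MHC class I and peptide loading were also all negative, with a median of -0.26, and 1, the immunoproteasome subunit Psmb9, fell in the blocked fit (adjusted p = 0.0117). Of 22 tested immediate early genes Dusp5 and Ier5 fell in the blocked fit and 0 rose.

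To ask whether the response differs in F2, the ICZ effect there was set against its mean over F3, F4 and F5, which all 6 mice have, with the mouse as a block. Of 13447 genes tested 0 passed an adjusted p of 0.05 in edgeR, 1353 had an unadjusted p under 0.05 (10.1%), and limma voom called 2. The genes of smallest p were more negative in F2: Jchain by 2.46 ± 0.44 on the log2 scale (adjusted p = 0.235), Rdx, Srgn, Itgb7, Ikzf2, Adrb1, Prkacb and Igha among them. No gene can therefore be called particular to F2 from this test.

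Side by side, each fraction fitted alone, Ikzf2 had a log2 fold change of -0.18 in F1, -2.04 in F2, -0.59 in F3, 0.11 in F4 and 1.13 in F5. Padi2 had -0.05, -2.15, -0.21, 0.65 and 0.21. The T cell list had medians of 0.06, -1.28, -0.53, 0.02 and 0.37, while the MHC class II list was negative in all 5, from -0.81 in F1 to -1.39 in F3. Proliferation genes had medians of -0.17, 0.52, 0.25, 0.09 and 0.25, and Paneth cell genes -0.55, 0.91, -0.09, -0.08 and 0.24. Cyp1a1 was positive in each fraction, at 11.97, 9.27, 9.42, 8.12 and 10.7 in F1 to F5, with the F2 value resting on a single vehicle read. Tmigd1 was positive in each as well, from 1.00 in F3 to 1.90 in F1. Mbl2 was negative in each fraction, from -1.31 in F1 to -2.18 in F2, and Acta1 positive in each, at 3.82 in F1, 3.33 in F2 and 1.48 in F5. The difference between F2 and the later fractions for Acta1 was 1.16 ± 0.52 (unadjusted p = 0.0422, adjusted p = 0.478). F1 rests on 2 ICZ mice. Without a block F1 had 4 calls, F3 had 1, and F4 and F5 had 0.

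**Figure D5:**
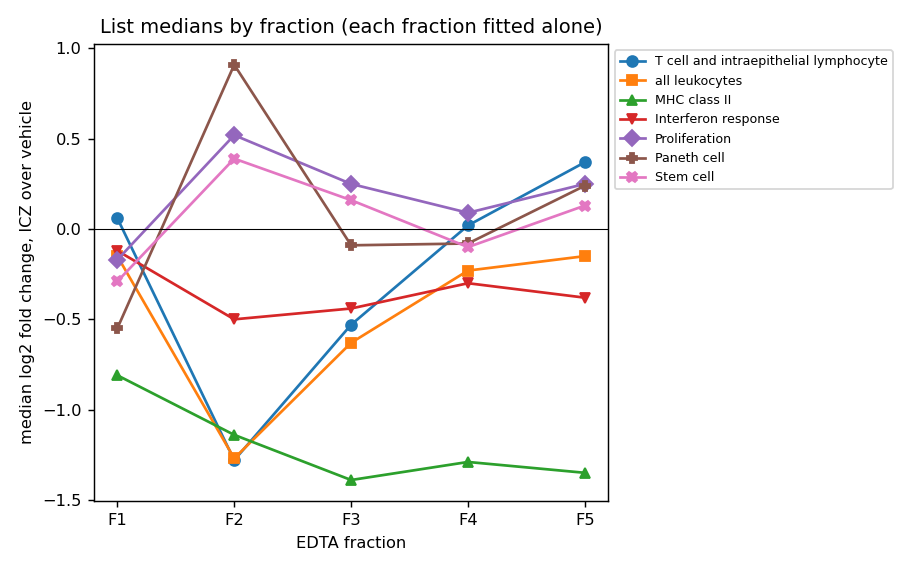
Median log2 fold change of ICZ over vehicle (vertical) of 7 gene lists in fractions F1 to F5 (horizontal), each fraction fitted alone. In F2 the T cell list lies at -1.28 and the Paneth cell list at 0.91; no gene passed the test of the difference between F2 and F3 to F5.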

How the data were processed

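The authors deposited 1 table of whole-number read counts per gene, not normalized, from QuantSeq 3' end libraries. Reads were processed with FastQC 0.11.2, BWA 0.7.17-r1188, SAMtools 1.10 and HTSeq 0.11.2 on GRCm38.p6 (mm10), per the submitters' processing notes. The sources used here do not give the annotation release, the strand setting or any molecular identifiers, so overlapping antisense genes cannot be told apart, near-identical genes are uncertain, and counting intervals cover counting error only. Of all counted reads 55.2% to 61.2% were assigned to genes in F2. Another 19.3% to 22.6% were set aside for low alignment quality, and 0% as not uniquely aligned. Whether near-identical genes, or genes listed at 0 reads, lost reads in this way was not tested. The summary lines that name no gene were left out, as was 1 column labelled as undetermined.

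From these counts edgeR 4.0.16 (R 4.3.3) computed TMM factors, filterByExpr (minimum count 10) and robust quasi-likelihood F tests with Benjamini-Hochberg adjustment over all tested genes. Each SE is the size of the log2 fold change divided by the root of its F statistic. The script was tested on simulated counts. Alternatives were the replicate block, RLE size factors, DESeq2 1.42.0, limma 3.58.1 voom, no filter, all libraries in 1 fit and leaving out each mouse. Same-numbered libraries had deviations correlated at 0.18, 0.11 and 0.17 across genes, different numbers at -0.15 to -0.02, so the numbers were taken to pair the mice. Deviations within a group cancel out, so the values for different numbers are not separate evidence of a pairing. GRCm38 gene coordinates come from GENCODE, counted from 1.

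Named were the AHR list, then up to 12 genes per direction from the test without a block and 10 from the blocked test (at least 5 CPM on average in either group, no overlap, predicted genes left out; by size among genes past the threshold, filled up by smallest p in the test without a block), up to 4 genes of smallest p per list, and 10 for the difference between fractions. The 37 gene lists and 11 marker lists, and the members compared, were chosen with earlier results of these data known.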

Additional observations from a re-analysis of the deposited data

How the results depend on the processing

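The test without a block made 2 calls, and 2 with RLE size factors, 2 with limma voom (1 higher and 1 lower, Padi2 not among them) and 3, all higher, with all 29 libraries in the fit, but 124 with DESeq2, 351 without the filter on low counts and 221 with the replicate block. Leaving out 1 mouse gave 0 to 267. The 221 blocked calls became 225 with RLE size factors and 251 with limma voom, 104 with DESeq2 and 648 without the filter, and 59 to 429 without a replicate pair; these alternatives to the block were chosen after seeing the data. Of the 221 calls 49 were shared with those made without replicate pair 2, 103 without pair 3 and 164 without pair 1. The difference between F2 and F3 to F5, with 0 calls, gave 187 without the filter, 2 with limma voom, 0 against F3 alone and 0 to 1 without a mouse. The pooled Cyp1a1 ratio was 830 with plain totals and 185 to 1110 without a mouse.

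Direction was lost for few named genes. Apart from the AHR list, these were chosen from these same libraries, many for a small p or for groups without overlap. A loss of direction was thus unlikely beforehand, and its rarity is no test of stability. With 1 mouse left out the log2 fold change of Ahr ran from -0.138 to 0.248, being negative without vehicle replicate 1 (-0.054), vehicle replicate 2 (-0.078) or ICZ replicate 2. For 5 genes the sign turned without vehicle replicate 3 and under no other alternative: Jchain ran from -3.149 to 0.182, Igha from -3.829 to 0.457, Igkc from -3.248 to 0.955, Lyz2 from -1.002 to 0.134 and Lyve1 from -0.042 to 0.358. Hbb-bs came to -0.166 with limma voom and ran from -0.517 without ICZ replicate 3 to 0.685, being -0.056 without vehicle replicate 1. The cause was not tested. With 3 mice a group and 5716419 to 7032542 gene reads a library, genes of a few reads cannot be separated from 0.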
